A study of Mus musculus with 6 samples.

Results

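The genes described here are 10 components of the protein-folding machinery of the endoplasmic reticulum (ER) and of the unfolded protein response (UPR) and were taken as a list of symbols. They comprise the chaperones Calr, Canx, Hspa5 and Hsp90b1, the protein disulfide isomerases Pdia3, Pdia4 and Pdia6, and the transcription factors Xbp1, Atf4 and Ddit3. Of 47729 genes counted, 17406 passed the filter on low counts, and all 10 listed genes were among them. RNA-seq was carried out on bone marrow-derived macrophages (BMMs) in 3 WT and 3 Aif1-/- libraries. Both genotypes were C57BL/6J and aged 8 weeks, and marrow came from the femur and tibia. The cells of both genotypes were differentiated, immortalized with SV40 large T antigen, a viral protein that keeps cells dividing, and kept in α-MEM with serum and the macrophage growth factor CSF-1 to passages 3 to 5. Aif1, which encodes allograft inflammatory factor 1, a myeloid calcium-binding protein, was inactivated in the germline of the Aif1-/- mice. No drug or diet was applied to these cells, and the genotypes were compared in this culture with CSF-1. The libraries of a genotype are described as coming from different mice, without saying if each animal gave its own immortalized line. The p-values cover the spread between these 6 libraries.

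Secreted and membrane proteins fold in the ER, where chaperones hold unfolded chains, lectin chaperones bind their sugar tags and disulfide isomerases form and rearrange their disulfide bonds. When unfolded chains accumulate, the membrane sensors IRE1 (Ern1), PERK (Eif2ak3) and ATF6 start the UPR. IRE1 splices Xbp1 mRNA, PERK phosphorylates eIF2α so that Atf4 mRNA is preferentially translated, and ATF6 is cut to release a transcription factor. ATF6 and XBP1 drive chaperone genes, whereas ATF4 drives amino acid metabolism genes and Ddit3, which encodes CHOP. The counts are summed per gene, so they show neither the splicing of Xbp1 nor the translation of Atf4.

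In Aif1-/- BMMs, 3 of the 10 genes were higher than in WT (Calr, Pdia6 and Xbp1), 1 was lower (Ddit3) and 6 did not pass the test (edgeR's quasi-likelihood test, Benjamini-Hochberg adjusted p below 0.05 over all genes tested). Across all genes tested, 18.6% passed, 8.04% as higher and 10.5% as lower in Aif1-/- BMMs. The difference in Ddit3 was 2.29-fold, whereas the 3 rises were 1.24- to 1.26-fold. The median log2 fold change of the 10 genes was 0.11, beside -0.0035 over all genes tested, and the median of its absolute size was 0.21 beside 0.20. In 8 of the 10 genes the libraries of the 2 genotypes did not overlap, as in 35.7% of all genes tested. Canx and Pdia3 overlapped. Without Aif1-/- replicate 1 the count of calls was 2 (Calr and Ddit3), without WT replicate 3, the library farthest from the others, it was 5 (with Hsp90b1), and with the share of reads matched to no gene as a covariate it was 7 (with Hsp90b1, Hspa5 and Pdia4). Over all genes tested these fits called 2040 of 17762, 4889 of 17730 and 5517 of 17406, in that order. The main fit called 3231 of 17406. The exact permutation test, run on 1 gene with 3 libraries a genotype, has 0.1 as its smallest two-sided p.

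The libraries held 17707986 to 29314253 counts in genes, and the 10 genes had raw counts of 369 to 22719 in each library, so counting error was at most 5.21% of a value. The targeted gene Aif1 had raw counts of 220, 157 and 239 in WT and of 4, 4 and 1 in Aif1-/- libraries. The WT libraries differed more among themselves than the Aif1-/- libraries did, and WT replicate 3 stood farthest apart, with a chi-square per gene of 28.6 and 49.8 against the other WT libraries, beside 2.52 to 3.54 between Aif1-/- libraries. The share of reads matched to no gene ran from 25.5% in WT replicate 3 to 40.4% in WT replicate 2 and from 33.6% to 35.7% in Aif1-/- libraries. Macrophage markers were abundant in every library, with a summed normalized count of 88290 to 108300 in WT and 128900 to 131000 in Aif1-/- BMMs, and 7 of 10 rose (among them Csf1r and Lyz2) while Cd14 fell. Of the B and plasma cell list, Sdc1 alone was tested and fell by 1.47 on the log2 scale, with a list sum of 1212 to 1587 in WT and 430.6 to 582 in Aif1-/- BMMs, and Cd79b and Mzb1 were at 0 in every library. The platelet list summed to 932.5 to 1049 in WT and 2000 to 2094 in Aif1-/- BMMs, almost all of it Pf4 and Treml1. The granulocyte, fibroblast and dendritic cell lists summed to at most 104 in any library. The part of these markers and of the share of reads matched to no gene in the results that follow was not tested, except where a fit with that share as a covariate is given.

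The 10 genes spanned an order of magnitude in level. As RPKM (reads per kilobase of exon, scaled to library size by TMM), a scale that allows genes of different length to be compared, the WT means were 202 for Calr, 178 for Hspa5, 168 for Pdia3, 139 for Canx, 122 for Hsp90b1, 86.7 for Atf4, 72.2 for Pdia4, 37.7 for Pdia6, 29.1 for Ddit3 and 18.6 for Xbp1. Of neighbours in this order, Hspa5 and Pdia3 overlapped over the WT libraries (175.0 to 183 against 164 to 175.3), as did Canx and Hsp90b1 (126 to 151 against 105 to 133), whereas the other neighbours did not. In Aif1-/- BMMs the order differed at 2 places. Ddit3 went below Xbp1, at 12.7 against 23.0, and their ranges of 12.2 to 13.1 and 22.9 to 23.2 did not overlap. Hsp90b1 and Canx changed places, at 148 and 146, with overlapping ranges. Together the 4 chaperones and 3 isomerases took 0.331% ± 0.0246 (SD, n = 3) of all gene counts in WT and 0.375% ± 0.01 in Aif1-/- libraries, and the 3 transcription factors took 0.0314% ± 0.000505 and 0.0283% ± 0.000494.

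**Figure D1:**
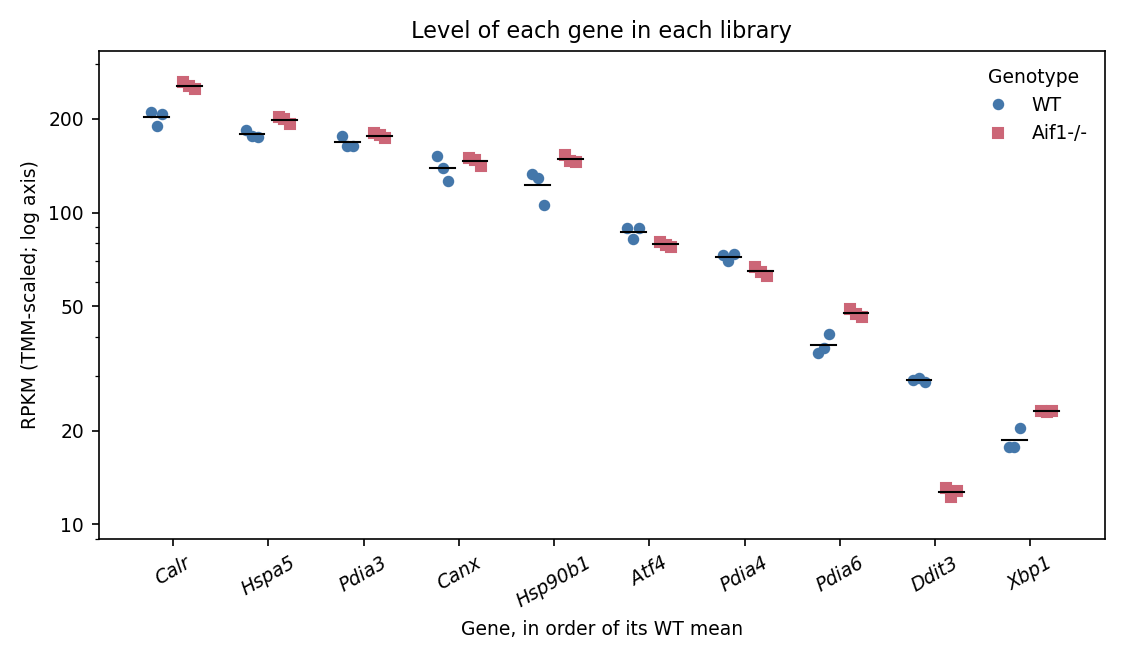
Level of each of the 10 genes in each library, as RPKM on a log axis; points are libraries, bars are means of 3, circles are WT and squares are Aif1-/-. Calr is highest in both genotypes, Ddit3 lies at 29.1 in WT and 12.7 in Aif1-/- BMMs, and the genotypes overlap only for Canx and Pdia3.

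Chaperone genes respond to the UPR through a known promoter sequence. The ER stress response element (ERSE), written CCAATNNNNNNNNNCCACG, is bound by the factor NF-Y at one end and by ATF6 or XBP1 at the other. It was searched on both strands of the 250 bases before the start of each gene in RefSeq (GRCm38.p6) and was found in 33 of 27025 promoters (0.122%). Of the 10 genes, 5 held it (Calr, Canx, Hspa5, Hsp90b1 and Pdia6), with 2 copies in Hsp90b1. The element is known from chaperone genes, so its presence in them, set beside all promoters, is no independent result. Pdia3, Pdia4, Xbp1, Atf4 and Ddit3 had no match in this window. All 10 promoters were in the RefSeq table, and the 6 sites are printed because all 4 chaperones hold at least 1 of them. They read along the strand of the gene, with the element in capitals and 5 or 6 flanking bases in lower case.
Calr, chr8:84847075-84847093: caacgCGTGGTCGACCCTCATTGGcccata
Canx, chr11:50325800-50325818: attgaCCAATCACCACGCTCCACGaagaat
Hspa5, chr2:34772025-34772043: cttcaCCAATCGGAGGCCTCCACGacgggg
Hsp90b1 upstream site, chr10:86705638-86705656: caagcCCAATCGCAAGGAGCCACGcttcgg
Hsp90b1 downstream site, chr10:86705533-86705551: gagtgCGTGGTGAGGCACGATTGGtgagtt
Pdia6, chr12:17266491-17266509: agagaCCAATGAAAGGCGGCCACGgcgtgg
The element lay in reverse orientation in Calr and in the downstream site of Hsp90b1. It began 162 bases before the RefSeq start in Calr, 145 in Canx, 65 in Hspa5, 212 and 107 in Hsp90b1 and 98 in Pdia6. In GENCODE M21 the Hspa5 gene begins upstream of its RefSeq start, and the Hspa5 site lies after that beginning. The other sites lie before the GENCODE start of their gene. Whether any site overlaps an exon was not checked. The related element ERSE-II (ATTGG, 1 free base and CCACG), the core of the XBP1-bound UPR element (TGACGTGG) and the ATF4-CHOP composite site (TGATGCAAT), searched the same way, were each found in 0 of the 10 promoters and in 0.0333%, 0.503% and 0.185% of all promoters. A match is a stretch of letters and no evidence of binding in these cells.

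Of the 10 genes, Calr and Pdia6 held an ERSE and passed the test of genotype, and their upstream sequences are shown whole, up to the start of the annotated gene, on the strand of the gene with the ERSE in capitals. Calr lies on the minus strand and Pdia6 on the plus strand.
Calr, chr8:84846935-84847181: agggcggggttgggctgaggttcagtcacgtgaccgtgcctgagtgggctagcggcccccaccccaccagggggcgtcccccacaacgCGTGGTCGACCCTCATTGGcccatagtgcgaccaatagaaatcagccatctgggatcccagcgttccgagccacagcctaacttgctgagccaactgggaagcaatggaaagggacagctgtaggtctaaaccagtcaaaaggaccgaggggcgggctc
Pdia6, chr12:17266339-17266544: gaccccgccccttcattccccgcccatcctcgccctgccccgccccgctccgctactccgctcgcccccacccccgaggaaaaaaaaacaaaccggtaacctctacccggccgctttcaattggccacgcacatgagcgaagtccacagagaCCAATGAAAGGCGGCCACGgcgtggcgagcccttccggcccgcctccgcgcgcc
Of the 5 genes with an ERSE, 2 were higher and 3 were not called, and their log2 fold changes ran from 0.07 to 0.34 with a median of 0.27. The 5 genes without it had a median of -0.13 and ran from -1.19 to 0.31, with 1 higher and 1 lower. Outside the 10 genes, 5 ERSE promoters belonged to the wider ER lists (Creld2, Derl3, Dnajc3, Ero1b and Syvn1, which were named by this match). All were tested (Ero1b under its older symbol Ero1lb), with log2 fold changes of -0.22 to 0.23 and a median of 0.03. None passed, and the smallest adjusted p was 0.0583 (Dnajc3, a BiP cochaperone, edgeR).

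Calr encodes calreticulin, a soluble calcium-binding lectin chaperone of the ER lumen, and lies on chromosome 8 of GRCm38 (84841850 to 84846934). Its normalized count, the count divided by the TMM-scaled library size and brought to the mean library, was 14167, 12803 and 13969 in WT replicates 1 to 3 and 17724, 17215 and 16808 in Aif1-/- replicates 1 to 3. All Aif1-/- libraries lay above all WT libraries. In the edgeR fit this was a log2 fold change of 0.34 with a standard error of 0.07, a 95% interval of 0.19 to 0.48 and an adjusted p of 0.00469. The rise passed the threshold without any single library (log2 fold change 0.30 to 0.37).

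Canx encodes calnexin, the membrane-bound relative of calreticulin that binds the same sugar tags. The normalized counts were 16670, 15298 and 13930 in WT and 16488, 16249 and 15564 in Aif1-/- libraries. WT replicate 1 was the highest of the 6 libraries and WT replicate 3 the lowest, so the genotypes overlapped. Canx had a log2 fold change of 0.07 (95% interval -0.10 to 0.24, adjusted p = 0.60 from edgeR). Calr per Canx, as RPKM, was 1.39, 1.36 and 1.63 in WT and 1.75, 1.73 and 1.76 in Aif1-/- libraries, so the ratio of the lectin chaperones was higher in every Aif1-/- library than in any WT library.

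Hspa5 encodes BiP, the ER Hsp70 that also holds the UPR sensors inactive, and is a customary readout of the response. In normalized counts Hspa5 measured 18216, 17450 and 17388 in WT and 20066, 19847 and 19094 in Aif1-/- libraries. The genotypes did not overlap, but the difference was small. The log2 fold change of 0.15 (95% interval 0.02 to 0.29) had an adjusted p of 0.119 from edgeR. With the share of reads matched to no gene as a covariate, the log2 fold change was again 0.15 and the adjusted p was 0.00905.

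Hsp90b1 encodes GRP94, the ER form of Hsp90, which folds integrins and Toll-like receptors. Normalized counts were 12606, 12199 and 9988 in WT and 14504, 13808 and 13744 in Aif1-/- libraries. WT replicate 3 lay well below the other libraries, and the Aif1-/- libraries lay above all WT libraries. This gave a log2 fold change of 0.27 (95% interval 0.08 to 0.47, adjusted p = 0.0591 from edgeR). The adjusted p fell to 0.0325 without WT replicate 2 and to 0.0204 without WT replicate 3, where the log2 fold change was 0.32 and 0.18. Hsp90b1 also passed in DESeq2 (adjusted p = 0.0252), with no filter on low counts (0.0146) and with the covariate (0.00394). Of its exon bases 10.3% are shared with the opposite-strand pseudogene 1810014B01Rik, which had a normalized count of 31.8 ± 10.6 (SD, n = 3) in WT and 46.5 ± 4.92 in Aif1-/- BMMs. On the same strand, Hsp90b1 shares 3.3% of its exon bases with Gm25745 and 2.08% with Gm15344.

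**Figure D2:**
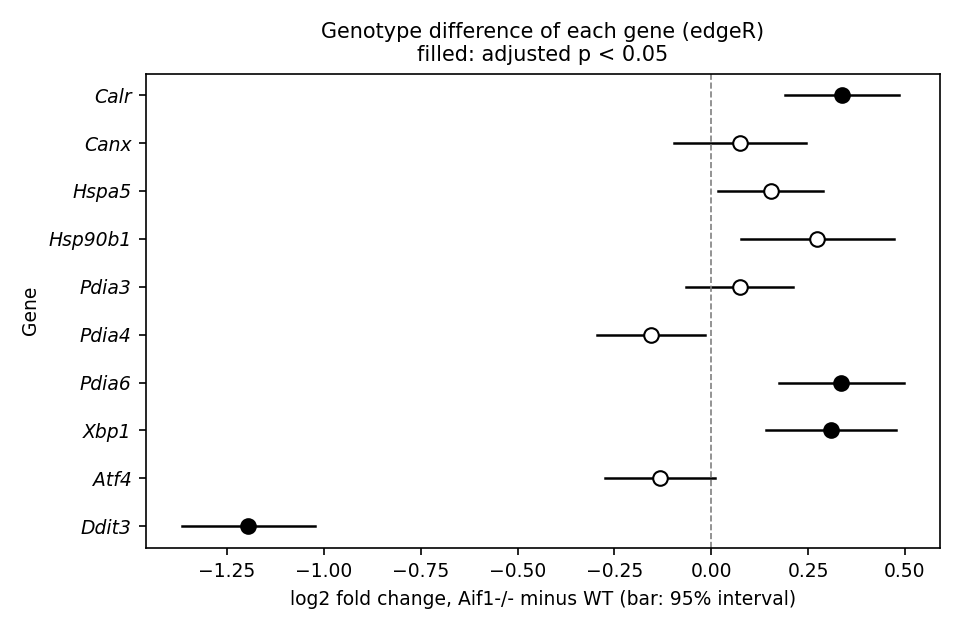
Log2 fold change of each of the 10 genes, Aif1-/- minus WT, from edgeR's quasi-likelihood fit; bars are 95% intervals, filled points have an adjusted p below 0.05 and open points do not. Calr, Pdia6 and Xbp1 lie between 0.31 and 0.34, Ddit3 lies at -1.19 and the 6 other genes lie between -0.16 and 0.27.

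Of the 3 disulfide isomerases, Pdia6 was higher and Pdia3 and Pdia4 did not pass. Pdia6 encodes an isomerase that works with BiP. Its normalized count was 3128, 3234 and 3599 in WT and 4330, 4169 and 4069 in Aif1-/- libraries, with no overlap. Pdia6 had a log2 fold change of 0.34 with a standard error of 0.07 (95% interval 0.17 to 0.50, adjusted p = 0.00834, edgeR). Without Aif1-/- replicate 1 it was 0.32 and the adjusted p was 0.0627.

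Pdia3 encodes ERp57, the isomerase that calreticulin and calnexin recruit to glycoproteins and that also sits in the MHC class I loading complex. Pdia3 had normalized counts of 12929, 12070 and 12090 in WT and 13222, 13058 and 12739 in Aif1-/- libraries. WT replicate 1 lay within the range of the Aif1-/- libraries. The log2 fold change was 0.07 (95% interval -0.06 to 0.21, adjusted p = 0.503 from edgeR), and whether Calr and this partner isomerase differ in their response was not tested.

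Pdia4 encodes ERp72, an isomerase with additional thioredoxin-like domains. Its normalized count was 4105, 3950 and 4151 in WT and 3782, 3642 and 3527 in Aif1-/- libraries. The Aif1-/- libraries lay below all WT libraries, opposite to Pdia6. This was a log2 fold change of -0.16 (95% interval -0.30 to -0.02, adjusted p = 0.125 from edgeR), and the adjusted p was 0.0248 with the share of reads matched to no gene as a covariate.

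Ddit3 encodes CHOP, a transcription factor that acts late in the UPR and promotes cell death when stress persists, and lies on chromosome 10 (127290774 to 127296288). Its normalized count was 1172, 1182 and 1156 in WT and 527, 491 and 514 in Aif1-/- libraries. The 3 WT libraries lay close together, and the highest Aif1-/- library was far below the lowest WT library. The means were 1170 ± 13.1 (SD, n = 3) and 511 ± 18.1, which the edgeR fit gave as a log2 fold change of -1.19 with a standard error of 0.08 (95% interval -1.37 to -1.02, adjusted p = 2.22e-06). The fall held in all 14 alternative analyses, at -1.21 to -1.16, and Ddit3 was the 1 gene of the 10 that passed a test against a 1.5-fold change. Of its exon bases 3.97% are shared with Mars on the opposite strand, a methionyl-tRNA synthetase gene whose normalized count was 2046 ± 237 in WT and 2209 ± 17.7 in Aif1-/- BMMs (log2 fold change 0.11, adjusted p = 0.459).

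Xbp1 encodes the factor that drives chaperone and ER degradation genes once its mRNA has been spliced by IRE1. Its normalized count was 1351, 1356 and 1553 in WT and 1768, 1750 and 1758 in Aif1-/- libraries. The Aif1-/- libraries were close together and above all WT libraries. Xbp1 had a log2 fold change of 0.31 with a standard error of 0.08 (95% interval 0.14 to 0.48, adjusted p = 0.0162, edgeR). The call did not survive the removal of WT replicate 1 (log2 fold change 0.27, adjusted p = 0.0711) or of Aif1-/- replicate 1, 2 or 3 (0.31 to 0.32, adjusted p = 0.0751 to 0.0834).

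Atf4 encodes the factor of the PERK branch, which other kinases of eIF2α also engage. Atf4 had normalized counts of 4927, 4550 and 4930 in WT and 4466, 4374 and 4295 in Aif1-/- libraries. Every Aif1-/- library was below every WT library, with a log2 fold change of -0.13 (95% interval -0.28 to 0.01, adjusted p = 0.201 from edgeR). Ddit3 per Atf4, as RPKM, was 0.328, 0.358 and 0.323 in WT and 0.163, 0.155 and 0.165 in Aif1-/- libraries. Xbp1 per Atf4 was 0.199, 0.216 and 0.229 in WT and 0.288, 0.291 and 0.297 in Aif1-/- libraries. Both ratios separated the genotypes, in opposite directions.

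Within the Aif1-/- genotype, replicate 1 had the highest normalized count for all 10 genes, and replicate 3 had the lowest for 8 and replicate 2 for 2. Within WT the highest library was replicate 1 for 5 genes, replicate 3 for 4 and replicate 2 for 1. Measured over all 6 libraries as log2 CPM centred on the mean of each gene, the pattern of Hspa5 was nearest to that of Pdia3 among the 10 genes (root mean square difference 0.0419 on the log2 scale) and farthest from that of Ddit3 (0.675). Outside all lists, the 5 genes of 17211 with the pattern most like Hspa5 were Kif5b, Ptges3, Smim14, Cks1b and Zkscan8, at 0.0188 to 0.0239 over the 6 libraries. Because they were chosen by likeness over the same libraries, their log2 fold changes of 0.12 to 0.17 lie near that of Hspa5 by construction. Like Hspa5 they did not pass the test, and neither the sizes nor this outcome is a separate result.

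**Figure D3:**
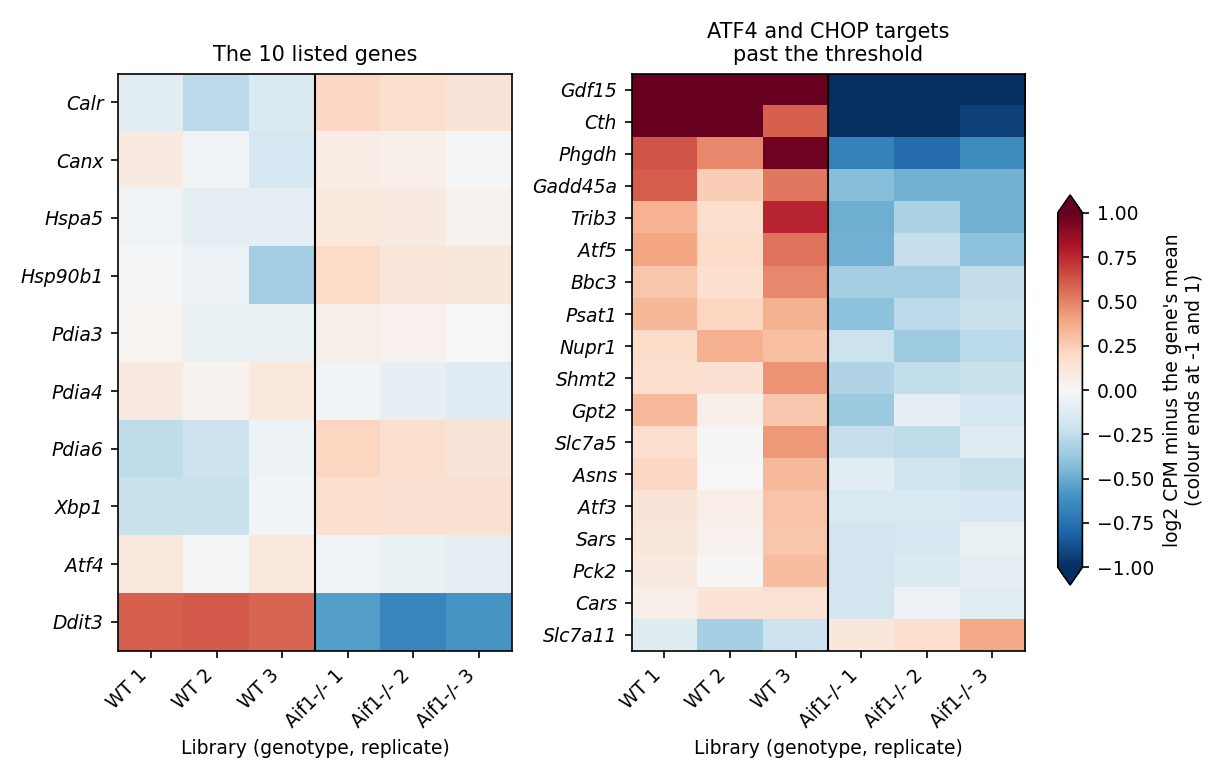
Log2 CPM of each gene minus its mean over the 6 libraries, for the 10 genes (left) and for the ATF4 and CHOP target genes past the threshold (right); columns are libraries, red is above and blue below the mean of the gene, and the colour ends at -1 and 1. Each WT library lies above each Aif1-/- library for Ddit3 and for 17 of the 18 target genes, and Slc7a11 is the reverse. The target genes shown were chosen by the test on these libraries, so their separation is no further result.

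Of the sensors above these factors, Ern1 and Atf6 were lower in Aif1-/- BMMs and Eif2ak3 did not pass. Of 19 tested genes of the sensors and the eIF2α pathway, 4 were higher, 6 were lower and 9 did not pass (52.6% called, beside 18.6% of all genes), with a median log2 fold change of -0.10. This list, too, was chosen with earlier results of these data known, so its share is a description only. Ern1, which encodes IRE1, had a normalized count of 2232, 2421 and 2434 in WT and 1275, 1291 and 1409 in Aif1-/- libraries, and its log2 fold change was -0.84 with a standard error of 0.07 (adjusted p = 2.10e-05, edgeR). Atf6 had 6203, 6137 and 6181 in WT and 4535, 4787 and 4528 in Aif1-/- libraries, a log2 fold change of -0.42 (adjusted p = 0.000694). Eif2ak3, which encodes PERK, had 1009, 1025 and 1011 in WT and 1161, 1217 and 1076 in Aif1-/- libraries. It did not pass, at 0.18 (95% interval 0.02 to 0.35, adjusted p = 0.134), and its adjusted p was 0.0437 with the share of reads matched to no gene as a covariate. The genotypes did not overlap for any of the 3 sensors, with Aif1-/- libraries below WT for Ern1 and Atf6 and above WT for Eif2ak3.

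Rtcb, which encodes the ligase that joins the Xbp1 exons after IRE1 has cut them, rose by 0.75 on the log2 scale (1839 ± 139 in WT and 3094 ± 117 in Aif1-/- BMMs, SD, n = 3, adjusted p = 5.54e-05). Nfe2l1, an ER membrane-bound factor that drives proteasome genes, fell by 0.38 (adjusted p = 0.00348). Ppp1r15a, which encodes the CHOP-inducible GADD34 subunit of the eIF2α phosphatase and was named after its values were seen, fell by 0.44 (637 ± 55.3 to 470.0 ± 11.7, adjusted p = 0.00943), and its adjusted p was 0.0676 without Aif1-/- replicate 1. Of the 4 rises and 6 falls, 1 rise (Rtcb) and 3 falls (Ern1, Atf6 and Nfe2l1) passed without each library in turn.

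Among the genes that ATF4 and CHOP are known to drive, falls predominated. Of 33 tested, 17 were lower, 1 was higher and 15 did not pass, with a median log2 fold change of -0.28, beside 10.5% lower and 8.04% higher over all genes. The list was chosen with earlier results of these data known, so this count is a description and no independent test. Gdf15, a stress-induced cytokine, fell by 4.02 (adjusted p = 2.15e-06), from 210.1, 232 and 317 in WT to 15.02, 11.99 and 19.75 in Aif1-/- libraries as normalized counts. Phgdh and Psat1, enzymes of serine synthesis, fell by 1.40 and 0.61 (adjusted p = 3.29e-05 and 0.000476). Phgdh was 927, 837 and 1180 in WT and 374, 350 and 387 in Aif1-/- libraries. Atf5, a factor induced by ATF4 and CHOP, fell by 0.76 (2697 ± 328 to 1598 ± 144, adjusted p = 0.000439). These 4 genes were chosen by smallest adjusted p, so their complete separation of the genotypes is no further result.

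Further targets were named after their values were seen. Trib3, a pseudokinase induced by CHOP, fell by 0.88 (adjusted p = 0.00142) and Gadd45a, a growth arrest gene, by 0.93 (adjusted p = 0.000646). Slc7a11, the cystine transporter subunit, was the 1 target that rose, by 0.44 (681 ± 49.4 to 926 ± 92.7, adjusted p = 0.00996), and its adjusted p was 0.0672 without Aif1-/- replicate 3. Of the 17 falls, 10 passed without each library in turn, and the other 7 were each lost without Aif1-/- replicate 1 or 3, 6 of them also without WT replicate 1 and 6 without Aif1-/- replicate 2. Without WT replicate 3 the list had 18 falls and 4 rises, and 3 of the 17 falls passed a test against a 1.5-fold change. The list holds targets known from many cell types, and not all are driven by both factors.

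**Figure D4:**
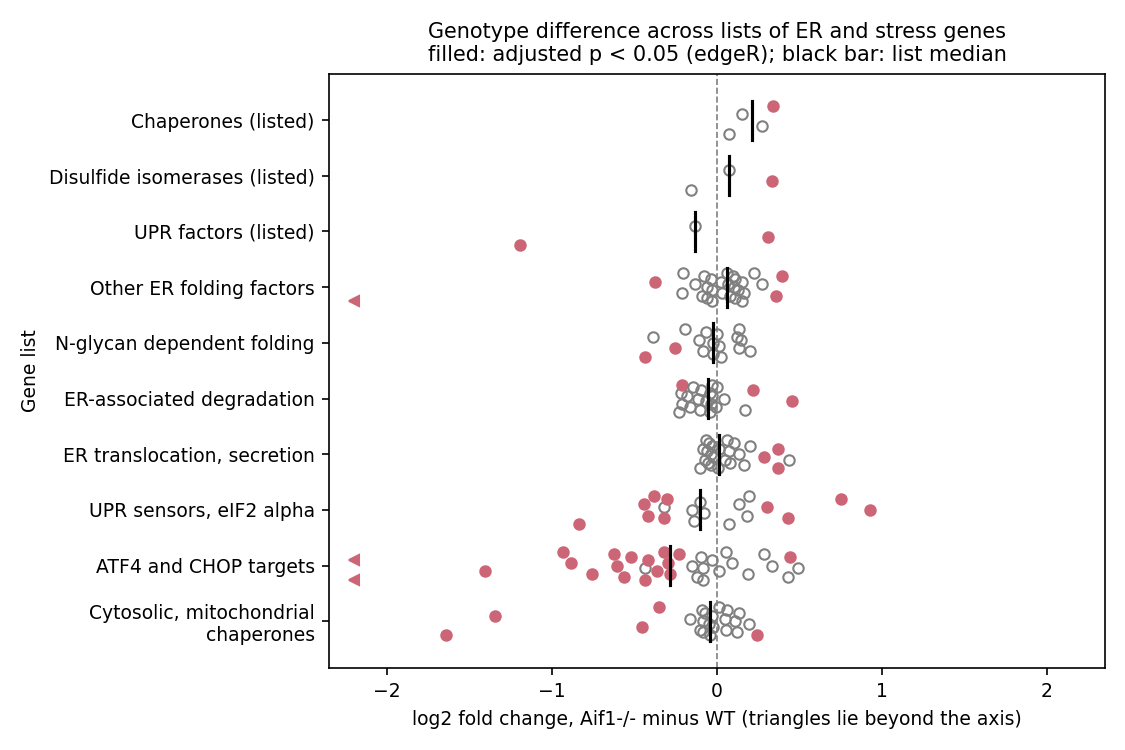
Log2 fold change, Aif1-/- minus WT, of each tested gene in 10 lists of ER and stress genes; filled points have an adjusted p below 0.05 in edgeR, open points do not, black bars are list medians and triangles are genes beyond the axis (Pdia5, Gdf15 and Cth). Most filled points of the ATF4 and CHOP target list lie left of 0 (17 lower, 1 higher). The folding, degradation and translocation lists outside the 10 genes have medians of -0.05 to 0.06. The medians of the listed chaperones and isomerases are 0.21 and 0.07. All lists were chosen with earlier results of these data known.

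In the remaining lists of ER function, 11.8% to 13.8% of the tested genes were called, beside 18.6% of all genes. Of 29 other ER chaperones and redox folding factors, 2 were higher and 2 lower, with a median log2 fold change of 0.06. Erp29, a lumenal folding factor related to the isomerases, rose by 0.36 (2908 ± 161 to 3720 ± 72.4, adjusted p = 0.00380). Sdf2l1, a BiP cofactor, rose by 0.40 (adjusted p = 0.0239) and Dnajb9, a BiP cochaperone that represses IRE1, fell by 0.38 (adjusted p = 0.0191). Both of these calls were lost without WT replicate 1 and without each Aif1-/- replicate, at adjusted p values of 0.0684 to 0.118 for Sdf2l1 and 0.0645 to 0.110 for Dnajb9. Pdia5, another isomerase, had 125 raw counts over the WT and 2 over the Aif1-/- libraries. This was a log2 ratio of -5.62 with a 95% counting interval of -8.68 to -3.74. In the edgeR fit the log2 fold change of Pdia5 was -5.41 (adjusted p = 0.000108). With raw counts of 1, 0 and 1 in Aif1-/- libraries, Pdia5 passed the filter on low counts through the WT libraries alone. Its WT level was 0.575 ± 0.117 (SD, n = 3) as RPKM, beside 37.7 to 168 for the 3 listed isomerases.

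Of 17 genes of N-glycan dependent folding 2 were lower and 15 did not pass. Mcfd2, a cargo receptor subunit, fell by 0.25 (adjusted p = 0.0482) and Alg2, a mannosyltransferase of glycan assembly, by 0.44 (adjusted p = 0.0489). Mcfd2 was called without WT replicate 2 only and Alg2 without WT replicate 1 only, and the other removals gave adjusted p values of 0.0503 to 0.208 and 0.0514 to 0.171. Without WT replicate 3 the log2 fold change of Alg2 was -0.27. Ganab and Uggt1, which trim and re-glucosylate glycans in the calnexin cycle, showed log2 fold changes of -0.19 and 0.14 (adjusted p = 0.0935 and 0.148).

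Of 22 genes of ER-associated degradation, 2 were higher and 1 lower. Ube2j1, the ER-anchored ubiquitin-conjugating enzyme, rose by 0.45 (adjusted p = 0.00219). Edem3, a mannosidase that marks proteins for disposal, rose by 0.22 (adjusted p = 0.0318), and Os9, a lectin of the same route, fell by 0.21 (adjusted p = 0.0477). The calls of Edem3 and Os9 were lost without WT replicate 1 and without each Aif1-/- replicate (adjusted p = 0.0965 to 0.161 and 0.0897 to 0.240). Edem1, a textbook target of spliced Xbp1, did not pass at -0.21 on the log2 scale (adjusted p = 0.0612). It passed in 6 of the 14 alternative analyses, among them DESeq2 (adjusted p = 0.0470), the fit with the covariate (0.00218) and the fit without WT replicate 2 (0.0104), each time as lower.

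Of 25 genes of ER translocation and early secretion, 3 were higher and 22 did not pass. Tram1, which lies beside the translocation channel, and Spcs3, a signal peptidase subunit, each rose by 0.37 (adjusted p = 0.00306 and 0.00654), and Ssr1, a translocon-associated protein, by 0.28 (adjusted p = 0.0210). Spcs3 had an adjusted p of 0.0516 without Aif1-/- replicate 2, and Ssr1 lost its call without WT replicate 1 and without each Aif1-/- replicate (0.0672 to 0.106). Sec24d, a coat subunit of ER exit vesicles, did not pass at 0.20 on the log2 scale (adjusted p = 0.128).

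Chaperones outside the ER were set beside these. Of 23 cytosolic and mitochondrial chaperones, 1 was higher and 4 were lower, with a median log2 fold change of -0.04. The share called was 21.7%, near the 18.6% of all genes tested. The stress-inducible Hsp70 genes Hspa1a and Hspa1b fell by 1.64 and 1.35 (adjusted p = 0.000203 and 0.000495). Their sequences are nearly identical, so reads could be split between them and the pair is counted with that uncertainty. Hspa9, the mitochondrial Hsp70, fell by 0.35 (adjusted p = 0.00318) and Lonp1, a mitochondrial protease, by 0.45 (adjusted p = 0.00473). These 4 falls passed without each library in turn. Across the 7 lists, 168 genes were tested, of which 13 were higher and 32 lower (26.8% called, beside 18.6% of all genes). The ATF4 and CHOP target list held 17 of the 32.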

How the data were processed

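Per the labels and methods, total RNA was depleted of ribosomal RNA, made into libraries with a stranded kit and sequenced as single-end reads on an Illumina instrument. The deposited values are raw counts per Ensembl gene, made by the authors with Trim Galore 0.5, TopHat2 2.0.13 and HTSeq 0.6.1p1 on GRCm38. The methods state that HTSeq ran with its defaults, which count by strand. Rows that name no gene (unmatched reads 25.5% to 40.4%, ambiguous reads 4.55% to 7.15% of counted reads) were left out of library sizes.

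The counts were tested with edgeR 4.0.16 (R 4.3.3; quasi-likelihood test on genotype, TMM scaling, default expression filter), with Benjamini-Hochberg adjustment over 17406 genes and a threshold of 0.05. Standard errors come from the log2 fold change and its F value, and 95% intervals are not adjusted. Exon lengths and symbols came from GENCODE M21 (47310 of 47729 genes matched), promoters from RefSeq. The fit was tested on simulated data. All 10 genes, Aif1, the 3 sensors, up to 4 genes per list by adjusted p, the 5 genes most like Hspa5 and markers with at least 10 counts could be named. The genes and lists were chosen with earlier results of these data known. Counting intervals cover counting error only. No per-sample column was left unmapped.

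Alternatives were DESeq2 1.42.0, other size factors, no filter, a filter of 50 counts in 3 or more libraries, a replicate block, the share of unmatched reads as a covariate, a test against a 1.5-fold change and each library left out in turn. Replicate numbers are shared by name between genotypes and were not used in the main test.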

Additional observations from a re-analysis of the deposited data

How the results depend on the processing

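Of the 10 genes, 4 were called, and 7 were with the share of reads matched to no gene as a covariate, 1 in a test against a 1.5-fold change and 2 to 5 with a library left out. Those higher numbered 3, then 5, 0 and 1 to 4, with the 0 from edgeR's test against a 1.5-fold change, and those lower 1, then 2, 1 and 1. Over all genes the 3231 calls became 5517, 1007 and 2040 to 4889, and over the 7 lists the 45 became 72, 7 and 24 to 70. Among the fits that left out 1 library, those without an Aif1-/- library gave the fewest calls over all genes (2040 to 2140) and the one without WT replicate 3 the most. Size factors, DESeq2 and the filters on low counts kept each of these counts within 1.5 times. The cause of these shifts was not tested, beyond fewer libraries in the fits that left one out.

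None of the 10 genes reversed in the 14 alternatives. Of their 140 values, 125 kept their side of the threshold, 8 lost it and 7 gained it. Ddit3, Canx, Pdia3 and Atf4 kept theirs throughout. The replicate numbers did not pair the samples: same-numbered libraries had correlations of 0.06, -0.075 and -0.086 in their deviations from the group means, and 1 of 3 WT libraries correlated best with its own number. With the replicate block 2872 genes, 4 of the 10 and 40 of the list genes were called, and Mcfd2, Alg2, Edem3 and Os9 lost their calls (adjusted p = 0.0880, 0.0544, 0.0667 and 0.0812). Mcfd2, Alg2 and Os9 also missed the threshold with the size factors of DESeq2 (0.0502, 0.0510 and 0.0501). Depth did not limit the 10 genes, whereas Pdia5 rests on few counts.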

Other observations

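Beyond the genes of ER function, the ERSE was found in the promoters of 23 genes that are in none of the lists, of which 9 were tested. Of these, 2 rose and 2 fell in Aif1-/- BMMs, where 8.04% of all genes tested were higher and 10.5% lower. These genes were named after their values were seen. Acacb, which encodes an acetyl-CoA carboxylase of the mitochondrial surface, had a normalized count of 119 ± 13.9 (SD, n = 3) in WT and 20.8 ± 6.09 in Aif1-/- BMMs (log2 fold change -2.51, adjusted p = 6.50e-05 from edgeR). Adcy3, an adenylyl cyclase, had 632 ± 12.9 in WT and 184 ± 11.1 in Aif1-/- BMMs (log2 fold change -1.77, adjusted p = 1.07e-06). Xlr3b and Xlr3c, near-identical X-linked genes whose reads could be split between copies, were at 0 in all WT libraries and had 75.2 ± 11.6 and 25.3 ± 4.58 in Aif1-/- BMMs. They passed the filter on low counts through the Aif1-/- libraries alone, so their rise is no separate result. As copies that may share reads they need not be 2 independent rises. The log2 fold changes of the 9 genes had a median of 0.13, beside 0.27 for the 5 listed genes with the element. The 5 genes of the wider ER lists with the element had a median of 0.03, and none of them passed the test.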
